A study of Mus musculus with 12 samples.

Results

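The Slc25 family comprises the carrier proteins that move metabolites across the inner mitochondrial membrane, and it was read here from an array study of interscapular brown fat in mice. Members were all genes with the symbol Slc25a followed by a number that had at least 1 probe set (a transcript cluster of a mouse exon array) assigned to no other gene. A gene with several such probe sets was represented by the brightest of them, judged by its mean signal in the 12 arrays. This gave 45 genes out of 20259 genes with a probe set of their own, and 41 of the 45 were among the 15896 genes bright enough to test. Slc25a5, an ADP/ATP carrier, had only probe sets shared with Gm5560 and so has no value here.

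Each group held 3 mice, each hybridised to 1 array, and the labels pair no mice between groups. Knockout (KO) mice carried floxed Cpt2 alleles (Cpt2f/f) and Adiponectin-Cre, so that Cpt2, the enzyme that turns imported acylcarnitines back into acyl-CoA inside mitochondria, was deleted in adipocytes while other cells of the tissue kept it. Wild-type (WT) controls were also Cpt2f/f and lacked Cre. All were female C57BL/6 mice, 12 weeks old and kept at 30 °C for 2 weeks, which is a warm housing that leaves brown fat little stimulated. KO and WT mice received an intraperitoneal injection of 10 mg/kg CL316243 (a drug that activates the β3-adrenergic receptor) or of saline, and tissue was collected 3 h later. The 4 groups are called KO CL316243, KO saline, WT CL316243 and WT saline, and array numbers follow the replicate numbers in the labels.

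Carriers of this family share a common fold and differ in cargo: some exchange ADP for ATP or bring in phosphate, and others carry acylcarnitines, di- and tricarboxylates, amino acids, coenzymes, nucleotides, iron or glutathione. The uncoupling proteins belong to the same protein family but have other symbols, and in brown fat Ucp1 lets protons back across the membrane so that respiration gives heat. Fatty acid oxidation uses the family directly, because Slc25a20 carries acylcarnitines in towards Cpt2 and returns free carnitine.

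Values are log2 signals, and 1 unit is a doubling. Differences are given as log2 units ± standard error of a limma fit to all 12 arrays, and adjusted p-values are Benjamini-Hochberg values over all 15896 tested genes within a comparison. A gene is said to rise, fall or differ where the adjusted p was under 0.05. Signals of different genes are not compared, since probes differ in brightness. In whole tissue, fewer cells of a type and less RNA per cell cannot be told apart.

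The arrays differed in cell-type markers, and these values stand beside the carrier results. Fits with muscle or red blood cell marker signal as a covariate are given below for some members only. The part of the other marker lists was not tested. The muscle covariate ended agonist calls of Slc25a11 and Slc25a44 (KO) and Slc25a39 (WT). It also ended KO to WT calls after CL316243 for Slc25a15, Slc25a30 and Slc25a44. Agonist calls gained with it were Slc25a40 (KO), Slc25a4, Slc25a10 and Slc25a20 (WT). Between KO and WT it added Slc25a1, Slc25a25 and Slc25a40 after CL316243 and Slc25a35 after saline. The red blood cell covariate ended agonist calls of Slc25a11, Slc25a34, Slc25a44 (KO) and Slc25a48 (WT). Brown adipocyte markers (8 of 8 genes with a value) had mean log2 signals of 8.37 to 8.68 in KO CL316243 and 7.43 to 8.74 in KO saline arrays. The means were 10.47 to 10.54 in WT CL316243 and 8.65 to 9.05 in WT saline arrays. Genes of this list did not all move alike. CL316243 raised 2 and lowered 3 of the 8 in KO tissue (7.75% and 10.2% of all genes). In WT tissue it raised 5 and lowered 0 (11.0% and 18.8% of all genes). General adipocyte marker means (4 of 5) lay between 10.77 and 11.22 in all arrays. In KO 1 of these 4 genes was higher and 1 lower after CL316243 (14.7% and 14.8% of all genes). After saline 1 was higher and 0 lower (5.44% and 6.19% of all genes). Macrophage markers (7 of 8) were at 9.27 to 9.49 in KO CL316243 and 8.82 to 9.23 in KO saline arrays, against 8.18 to 8.55 in WT CL316243 and 8.32 to 8.63 in WT saline arrays. Gland epithelium markers (5 of 5) were at 7.39 to 8.23 in KO CL316243 and 6.93 to 7.94 in KO saline arrays, against 5.84 to 6.18 in WT CL316243 and 6.07 to 6.98 in WT saline arrays. Endothelial markers (7 of 7) were at 8.86 to 9.03 in KO CL316243 and 8.72 to 8.89 in KO saline arrays. In WT arrays they were at 9.26 to 9.33 after CL316243 and 8.81 to 8.97 after saline. In KO after CL316243, 4 of 7 endothelial and 6 of 8 brown adipocyte markers were lower (14.8% of all genes), and 0 were higher. Of macrophage and gland epithelium markers, 6 of 7 and 5 of 5 were higher there (14.7% of all genes), and 0 were lower. Nerve marker means (4 of 6) lay between 8.03 and 8.26 in all arrays, while single genes went opposite ways. In KO 1 of the 4 was higher and 1 lower after CL316243 (14.7% and 14.8% of all genes). The same counts were found after saline (5.44% and 6.19% of all genes). Skeletal muscle markers (10 of 12) ran from 7.08 to 11.39 and varied widely within each group. KO saline array 1 stood apart, with a Ucp1 signal of 8.39 against 12.29 and 11.47 in the other KO saline arrays. Red blood cell markers (3 of 11) also separated the genotypes, at 6.01 to 6.21 in KO CL316243 and 6.01 to 6.16 in KO saline arrays, against 6.48 to 6.63 in WT CL316243 and 6.39 to 6.69 in WT saline arrays. These 3 genes were Alas2, Slc4a1 and Epb42, with no globin gene among them, and 2 of the 3 were above the floor of detection in all arrays.

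The family as a whole was altered most often between KO and WT tissue after CL316243. In that comparison 22 of 41 members differed (53.7%, against 29.5% of all tested genes), 7 higher in KO (14.7% of all genes were higher) and 15 lower in KO (14.8% of all genes were lower). The median difference was -0.22 over the members and -0.04 over all tested genes. After saline, 10 of 41 members differed between KO and WT (11.6% of all genes), 4 higher in KO and 6 lower (5.44% and 6.19% of all genes), with medians of -0.09 for members and -0.05 for all genes. CL316243 changed 13 members in KO tissue (17.9% of all genes), 3 up and 10 down (7.75% and 10.2% of all genes). In WT tissue it changed 15 members (29.8% of all genes), 5 up and 10 down (11.0% and 18.8% of all genes). These falls include Slc25a14 (both genotypes) and Slc25a40 (WT), which had 0 of 3 WT CL316243 arrays above the signal filter. Both passed the filter through groups where their signal was higher, so their falls are no independent support. On the probe sets used, only Slc25a28 had an agonist effect that differed between genotypes by the interaction test (2.04% of all genes did), with 1 member higher and 0 lower (0.774% and 1.26% of all genes). Counted as groups without overlap, KO and WT arrays were apart after CL316243 for 29 of 41 members (70.7%, against 44.8% of all genes), 9 with KO higher and 20 with KO lower (21.7% and 23.2% of all genes). After saline 15 members were apart (36.8% of all genes), 5 higher and 10 lower (14.1% and 22.7% of all genes). CL316243 and saline arrays were apart for 19 members in KO tissue (40.2% of all genes), 4 up and 15 down (15.0% and 25.2%), and for 17 in WT tissue (41.0%), 7 up and 10 down (14.3% and 26.7%). With each array centred on its median, CL316243 calls were 4 up and 8 down in KO tissue (9.38% and 6.56% of all genes) and 7 up and 5 down in WT tissue (15.7% and 10.3%). Between KO and WT after CL316243 they were then 5 higher and 17 lower (12.1% and 21.9%). Leaving out single arrays in turn gave 0 to 3 members up and 5 to 10 down with CL316243 in KO tissue, lowest without KO saline array 3 for rises (5.59% of all genes) and without KO CL316243 array 1 or 3 for falls (4.88% and 5.37% of all genes). In WT tissue it gave 4 to 6 up and 5 to 11 down, with the 5 falls found without WT CL316243 array 1 or WT saline array 2 (15.7% and 12.8% of all genes). Between KO and WT after CL316243 it gave 4 to 7 higher and 11 to 16 lower in KO. The 4 were found without KO CL316243 array 1 or WT CL316243 array 1 (10.7% and 14% of all genes). The 11 were found without KO CL316243 array 1 or WT CL316243 array 2 (9.82% and 10.8% of all genes). After saline, leaving out single arrays gave 0 to 4 higher and 1 to 8 lower in KO. Both were lowest without KO saline array 3 (2.09% and 1.56% of all genes), and the 0 was also found without WT saline array 1 (2.07% of all genes). In the interaction 3 members were lower without KO saline array 1 (1.2% of all genes), and 1 without WT saline array 1 or 3 (0.755% and 0.717% of all genes). In all, 28 of 41 members were called in at least 1 of the 5 comparisons (68.3%), against 51.7% of all tested genes.

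**Figure D1:**
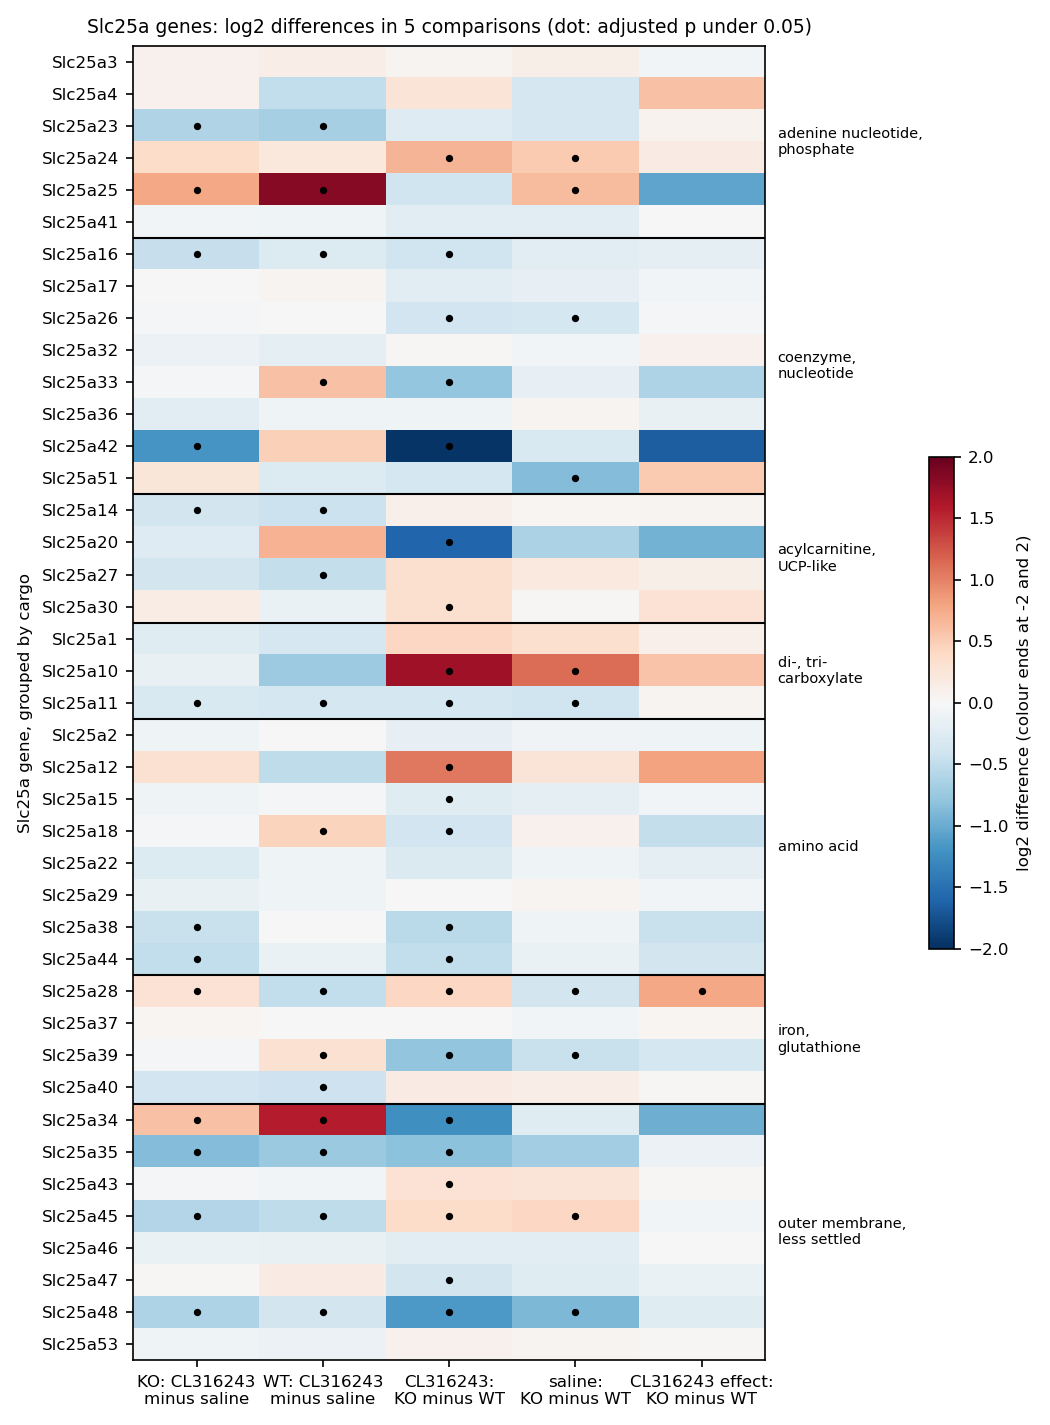
Log2 differences of the 41 tested Slc25a genes (rows, grouped by cargo) in 5 comparisons (columns), with a dot where the adjusted p was under 0.05. The column for KO minus WT after CL316243 holds 22 dots and the interaction column 1, and Slc25a42, Slc25a20 and Slc25a34 are the darkest blue cells of the KO minus WT column after CL316243.

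The acylcarnitine carrier and the coenzyme A carrier were the members most strongly lower in agonist-stimulated KO tissue. Slc25a20, the carnitine-acylcarnitine translocase, had log2 signals of 9.29, 9.21 and 9.37 in KO CL316243 arrays, against 10.81, 10.92 and 10.87 in WT CL316243 arrays. After saline the signals were 8.93, 10.14 and 9.57 in KO arrays, against 10.41, 10.30 and 9.84 in WT arrays. The groups were far apart after CL316243 and overlapped after saline, where KO array 2 lay above WT array 3. After CL316243 Slc25a20 was 2.99-fold lower in KO tissue (-1.58 ± 0.24, adjusted p = 0.00102), and after saline the difference was -0.64 ± 0.24 (adjusted p = 0.111). CL316243 gave -0.26 ± 0.24 in KO (adjusted p = 0.526) and 0.69 ± 0.24 in WT tissue (adjusted p = 0.0535). The WT difference passed the test in 8 of 24 alternatives, the muscle covariate among them, and ran from 0.52 to 0.80 over all 24. The interaction was -0.94 ± 0.34 (adjusted p = 0.198), and without KO saline array 1 it was -1.25 (adjusted p = 0.0374).

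Slc25a42, which brings coenzyme A into the matrix, had log2 signals of 7.86, 7.93 and 8.26 in KO CL316243 arrays, against 9.62, 10.04 and 10.26 in WT CL316243 arrays. After saline the log2 signals were 8.46, 9.94 and 9.20 in KO, against 9.51, 9.91 and 9.08 in WT. The KO CL316243 arrays lay below all others, and the remaining groups overlapped. Slc25a42 was 3.88-fold lower in KO than in WT tissue after CL316243 (-1.96 ± 0.33, adjusted p = 0.00164), and after saline the difference was -0.30 ± 0.33 (adjusted p = 0.556). CL316243 lowered it 2.27-fold in KO tissue (-1.18 ± 0.33, adjusted p = 0.0294). That call ended when any 1 of the 3 KO CL316243 arrays, KO saline array 2 or KO saline array 3 was left out (differences of -1.30 to -0.81). In WT tissue the agonist difference was 0.47 ± 0.33 (adjusted p = 0.322), and the interaction was -1.65 ± 0.46 (adjusted p = 0.0972; -2.02 and adjusted p = 0.0312 without KO saline array 1).

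A second probe set of Slc25a42, dimmer on average and examined after the data had been seen, gave larger differences. Its log2 signals were 5.82, 6.17 and 6.70 in KO CL316243 arrays, against 9.65, 10.23 and 10.28 in WT CL316243 arrays. In saline arrays they were 7.42, 9.11 and 8.61 in KO, against 8.72, 8.13 and 6.73 in WT. On this probe set Slc25a42 was 14.1-fold lower in KO after CL316243 (-3.82 ± 0.51, adjusted p = 4.7e-04). CL316243 lowered it in KO (-2.15 ± 0.51, adjusted p = 0.0151) and raised it in WT tissue (2.19 ± 0.51, adjusted p = 0.00774), and the interaction passed the test (-4.35 ± 0.72, adjusted p = 0.0142). The probe sets thus shared the direction of the KO CL316243 difference and gave different calls for the WT agonist effect and the interaction. Their KO to WT differences after saline had opposite signs, -0.30 on the probe set used and 0.52 on the second (limma adjusted p = 0.556 and 0.511).

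**Figure D2:**
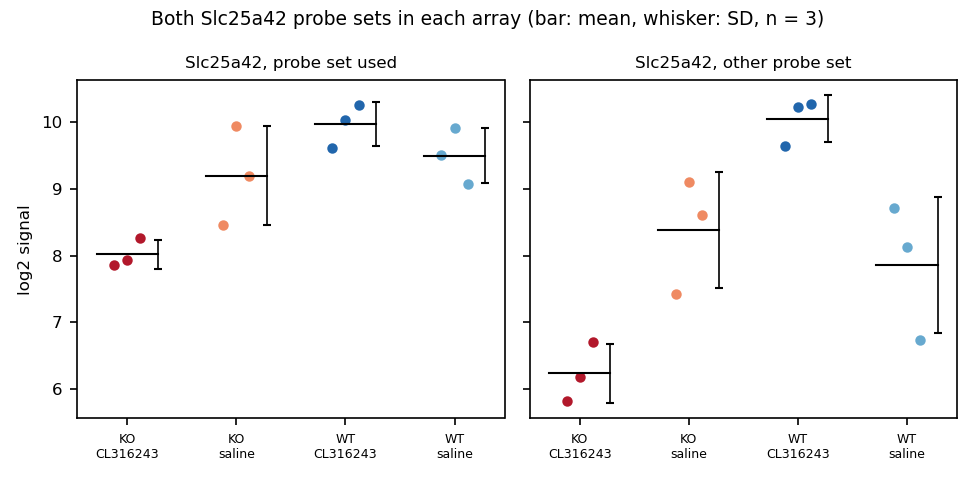
Log2 signal (vertical axis) of both Slc25a42 probe sets in each array, by group, with bars for means and whiskers for SD (n = 3). In both panels the KO CL316243 arrays are lowest, and in the right panel they sit at 5.82 to 6.70 against 9.65 to 10.28 in WT CL316243 arrays.

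The promoters of these 2 genes are printed because both genes were lower in stimulated KO tissue. RefSeq gives them on GRCm38.p6, from 250 bases before to 50 bases after the annotated transcript start, at chr9:108661886-108662185 (plus strand) for Slc25a20 and at chr8:70212232-70212531 (minus strand) for Slc25a42. They are written 5′ to 3′ along the gene. Neither holds the cyclic AMP response element TGACGTCA or the Nr4a monomer element AAAGGTCA on either strand, so no letters are in capitals, and this says only that these letters are not in these windows.
Slc25a20: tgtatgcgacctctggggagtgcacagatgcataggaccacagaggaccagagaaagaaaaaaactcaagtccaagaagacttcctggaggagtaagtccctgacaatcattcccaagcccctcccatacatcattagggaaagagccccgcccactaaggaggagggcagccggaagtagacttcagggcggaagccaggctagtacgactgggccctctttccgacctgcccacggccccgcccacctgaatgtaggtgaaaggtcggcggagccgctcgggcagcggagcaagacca
Slc25a42: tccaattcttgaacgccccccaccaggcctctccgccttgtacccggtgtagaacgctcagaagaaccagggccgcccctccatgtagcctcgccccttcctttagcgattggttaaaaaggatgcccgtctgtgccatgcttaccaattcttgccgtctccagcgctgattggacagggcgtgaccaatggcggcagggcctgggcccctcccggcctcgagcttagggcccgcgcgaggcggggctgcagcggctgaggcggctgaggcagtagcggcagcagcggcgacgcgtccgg

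Of 8 tested coenzyme and nucleotide carriers, Slc25a42 among them, 4 were lower and 0 higher in KO after CL316243 (14.8% and 14.7% of all genes; median difference -0.37). After saline 2 were lower (6.19% of all genes; median -0.19). Slc25a33, a pyrimidine nucleotide carrier, had log2 signals of 7.10, 6.99 and 7.04 in KO CL316243 arrays, against 7.81, 7.78 and 7.86 in WT CL316243 arrays. Its saline arrays read 7.13, 7.17 and 6.93 in KO, against 7.47, 7.20 and 7.05 in WT. The WT CL316243 arrays stood above all 9 others. Slc25a33 was 1.71-fold lower in KO after CL316243 (-0.78 ± 0.11, adjusted p = 6.16e-04) and rose with CL316243 in WT tissue (0.58 ± 0.11, adjusted p = 0.00249). These comparisons share the WT CL316243 arrays. In KO tissue the agonist difference was -0.04 ± 0.11, and the interaction was -0.61 ± 0.15 (adjusted p = 0.0663).

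Slc25a26, the S-adenosylmethionine carrier, was lower in KO after both injections, by -0.39 ± 0.074 after CL316243 (adjusted p = 0.0034) and -0.35 after saline (adjusted p = 0.0149). The saline call ended without KO saline array 1 (-0.31) or array 3 (-0.35), or without WT saline array 1 (-0.35). Slc25a16, a carrier linked to coenzyme A supply, was lower in KO after CL316243 (-0.40, adjusted p = 0.0079) and fell with CL316243 in KO tissue (-0.46 ± 0.091, adjusted p = 0.00649). Its fall in WT tissue (-0.28, adjusted p = 0.0385) was lost when any 1 of 7 arrays was left out (-0.30 to -0.23): KO CL316243 array 3, KO saline array 3, any WT CL316243 array, or WT saline arrays 1 and 2.

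Slc25a51, a carrier of NAD, had log2 signals of 9.58, 9.58 and 9.68 in KO CL316243 arrays, against 9.87, 10.29 and 9.73 in WT CL316243 arrays. The saline arrays gave 9.01, 9.70 and 9.39 in KO, against 10.36, 10.43 and 9.93 in WT. The KO arrays lay below the WT arrays after each injection. The difference after saline was -0.87 ± 0.19 (adjusted p = 0.0174). It missed the threshold without KO saline array 1 (-0.69) or array 3 (-0.88), or without WT saline array 1 (-0.81) or array 2 (-0.78). Which locus this probe set reads is uncertain: 18 of its 20 listed neighbours in the table are genes of chromosome 7, while RefSeq places Slc25a51 on chromosome 4. Slc25a17, a peroxisomal member, and Slc25a32 and Slc25a36, carriers of folate or flavin and of pyrimidine nucleotides, passed the test in none of the 5 comparisons by limma in the fit to all arrays.

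Among carriers of adenine nucleotides and phosphate, the ATP-Mg/phosphate carrier Slc25a25 gave the largest agonist rise in WT tissue on the probe sets used (the second Slc25a42 probe set rose by 2.19). Its log2 signals were 8.65, 8.31 and 8.42 in KO CL316243 arrays, against 7.29, 8.19 and 7.59 in KO saline arrays. In WT tissue they were 8.75, 8.97 and 8.87 after CL316243, against 7.17, 6.95 and 7.02 after saline. The agonist and saline arrays did not overlap in either genotype. Slc25a25 rose 1.70-fold in KO tissue (0.77 ± 0.19, adjusted p = 0.0176) and 3.52-fold in WT tissue (1.82, adjusted p = 7.9e-05). The KO call ended without KO CL316243 array 1 (0.67), KO saline array 1 (0.57) or KO saline array 3 (0.72). The interaction was -1.05 ± 0.27 (adjusted p = 0.071). After saline KO exceeded WT by 0.64 (adjusted p = 0.0484), a call lost on leaving out any array other than KO saline array 1 (0.39 to 0.71), and after CL316243 the difference was -0.40 (adjusted p = 0.125).

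Its close relatives Slc25a23 and Slc25a24, also ATP-Mg/phosphate carriers, had other agonist calls. Slc25a23 fell with CL316243 in both genotypes, by -0.60 ± 0.10 in KO (adjusted p = 0.00302) and -0.67 in WT tissue (adjusted p = 7.86e-04), and both calls held under every alternative run. Slc25a24 had agonist differences of 0.37 ± 0.13 in KO (adjusted p = 0.0732), where the groups did not overlap, and 0.21 in WT tissue (adjusted p = 0.257). The KO agonist difference passed the test with median-centred arrays and without WT saline array 1. Slc25a24 was higher in KO after CL316243 (0.68, adjusted p = 0.00334) and after saline (0.53, adjusted p = 0.0279). The saline call ended without KO saline array 1 (0.50) or array 3 (0.43), or without WT saline array 1 (0.40). Slc25a41 of the same subgroup had 5.35 to 5.88 in all 12 arrays and passed no test in the fit to all arrays.

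The ADP/ATP carrier Slc25a4 and the phosphate carrier Slc25a3, which serve ATP synthesis, did not pass the test in any comparison of the fit to all arrays. Slc25a4 had log2 signals of 9.64, 9.02 and 9.72 in KO CL316243 arrays, against 9.06, 9.41 and 9.17 in WT CL316243 arrays. Under saline the values were 9.11, 9.57 and 9.46 in KO, against 9.67, 9.53 and 9.93 in WT. The WT CL316243 arrays lay below the WT saline arrays without overlap, by -0.50 (adjusted p = 0.072), and all other pairs of groups overlapped. That difference passed the test with muscle marker signal as a covariate (-0.44, adjusted p = 0.0168), in a fit of only the groups compared (-0.50, adjusted p = 0.0442) and without KO CL316243 array 2 (-0.50, adjusted p = 0.0273). Slc25a4 is the form of striated muscle, and its 2 higher KO CL316243 arrays, 1 and 3, were those with muscle marker means of 10.98, against 9.21 in array 2. In the WT saline group the highest Slc25a4 signal (9.93) and the highest muscle mean (11.39) also fell on the same array.

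**Figure D3:**
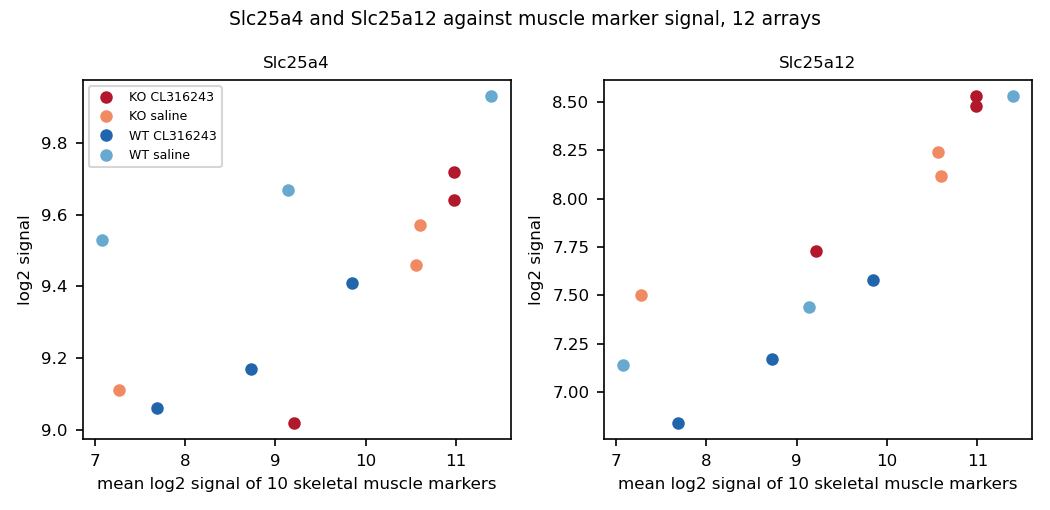
Log2 signals of Slc25a4 and Slc25a12 (vertical axes) against the mean log2 signal of 10 skeletal muscle markers (horizontal axes), 1 point per array, coloured by group. Within KO CL316243 and WT saline the array with the highest muscle mean is among the highest for each gene, with WT saline array 3 at 11.39 for muscle and 9.93 for Slc25a4.

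Slc25a3 had log2 signals of 9.44, 9.40 and 9.36 in KO CL316243 arrays, against 9.26, 9.47 and 9.30 in WT CL316243 arrays. After saline it had 9.17, 9.44 and 9.36 in KO arrays, against 9.17, 9.21 and 9.24 in WT arrays. All these values lay within 9.17 to 9.47, and the differences ran from -0.05 to 0.13 with adjusted p-values of 0.294 or more.

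Di- and tricarboxylate carriers exchange Krebs cycle intermediates with the cytosol, and Slc25a10 was the clearest of them. Slc25a10, the dicarboxylate carrier, had log2 signals of 9.89, 9.81 and 9.59 in KO CL316243 arrays, against 7.83, 8.13 and 8.27 in WT CL316243 arrays. With saline injection it had 10.66, 9.39 and 9.69 in KO, against 9.12, 8.87 and 8.40 in WT. Every KO array lay above every WT array of the same injection. It was 3.22-fold higher in KO after CL316243 (1.69 ± 0.28, adjusted p = 0.00173) and 2.17-fold higher after saline (1.12, adjusted p = 0.0307). The saline call ended without KO saline array 1 (0.74), where the signal was highest, or array 3 (1.23), and without any 1 of the WT saline arrays (0.92 to 1.28). The agonist differences were -0.15 ± 0.28 in KO and -0.72 in WT tissue (adjusted p = 0.777 and 0.0791).

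Slc25a11, the oxoglutarate carrier of the malate-aspartate shuttle, went the other way. KO signals were lower by -0.35 after CL316243 (adjusted p = 0.018) and -0.40 after saline (adjusted p = 0.0224). It also fell with CL316243 in KO (-0.30 ± 0.094, adjusted p = 0.0488) and in WT tissue (-0.35, adjusted p = 0.0159). These calls were sensitive to single arrays: the KO difference after CL316243 lost it without KO CL316243 array 2 (-0.29) or WT CL316243 array 2 (-0.33). The saline difference lost it without KO saline array 1 (-0.33) or 3 (-0.39), or WT saline array 1 (-0.42) or 2 (-0.36). The fall in KO tissue lost it without any array other than KO saline array 1 and WT CL316243 array 3 (-0.34 to -0.21), and the fall in WT tissue without WT saline array 2 (-0.31).

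Slc25a1, the citrate carrier that feeds cytosolic acetyl-CoA for fatty acid synthesis, had log2 signals of 9.72, 10.00 and 9.79 in KO CL316243 arrays, against 9.29, 9.55 and 9.40 in WT CL316243 arrays. The corresponding saline signals were 10.67, 9.80 and 9.77 in KO, against 10.12, 9.74 and 9.41 in WT. KO exceeded WT without overlap after CL316243, by 0.42 (adjusted p = 0.187), and overlapped it after saline. Slc25a1 was called in no comparison of the fit to all arrays, with adjusted p-values of 0.187 to 0.928. The KO difference after CL316243 passed the test in 2 of 24 alternatives (lowest limma adjusted p = 0.0339). These were a fit of only the groups compared and the muscle covariate.

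Amino acid carriers included 8 tested members, of which 4 were lower and 1 higher in KO after CL316243 (14.8% and 14.7% of all genes; median -0.27), and 0 differed after saline (11.6% of all genes). Slc25a44, which imports branched-chain amino acids and is known for that role in brown fat, had log2 signals of 9.06, 9.34 and 9.29 in KO CL316243 arrays, against 9.73, 9.81 and 9.61 in WT CL316243 arrays. Saline-injected mice had 9.85, 9.75 and 9.56 in KO, against 10.16, 9.82 and 9.58 in WT. The KO CL316243 arrays lay below all 9 others. It was lower in KO after CL316243 (-0.49 ± 0.14, adjusted p = 0.0247), a call lost without KO CL316243 array 1 (-0.40), WT CL316243 array 1 (-0.48) or WT CL316243 array 2 (-0.44), and -0.41 with adjusted p = 0.0639 when muscle marker signal was a covariate. CL316243 lowered it in KO tissue (-0.49 ± 0.14, adjusted p = 0.0353), which was lost without any 1 of the KO CL316243 arrays or without KO saline array 1 or 2 (-0.55 to -0.41).

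Slc25a12, an aspartate-glutamate carrier of the malate-aspartate shuttle that is abundant in muscle, had log2 signals of 8.48, 7.73 and 8.53 in KO CL316243 arrays, against 6.84, 7.58 and 7.17 in WT CL316243 arrays. After saline the log2 signals were 7.50, 8.12 and 8.24 in KO, against 7.44, 7.14 and 8.53 in WT. The groups separated after CL316243 and overlapped after saline. It was 2.08-fold higher in KO after CL316243 (1.05 ± 0.36, adjusted p = 0.0453). Leaving out any 1 of 7 arrays ended that call (0.88 to 1.05): KO CL316243 arrays 1 and 3, KO saline arrays 2 and 3, WT CL316243 arrays 1 and 3, and WT saline array 1. Of the gene's 3 other probe sets, 2 were tested and gave 0.21 and 0.52 (adjusted p = 0.771 and 0.459), and the other one, below the floor of detection, gave 0.09. The muscle marker means in the KO CL316243 arrays were 10.98, 9.21 and 10.98, and the array with the lowest of them also had the lowest Slc25a12. With muscle marker signal as a covariate the call held at a smaller size (0.57, adjusted p = 0.0161).

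Slc25a38, a glycine carrier needed for haem synthesis, was lower in KO after CL316243 (-0.54, adjusted p = 0.00192) and fell with CL316243 in KO tissue (-0.44 ± 0.092, adjusted p = 0.00868), while the difference in WT tissue was 0.00 and the interaction -0.44 (adjusted p = 0.116). Slc25a18, a glutamate carrier, rose with CL316243 in WT tissue (0.44 ± 0.098, adjusted p = 0.0061) and was lower in KO after CL316243 (-0.38, adjusted p = 0.0136). This genotype call ended without KO CL316243 array 1 (-0.35) or array 2 (-0.36). Slc25a15, an ornithine carrier, was lower in KO after CL316243 by -0.25 ± 0.078 (adjusted p = 0.0327), and omitting any 1 of 5 of the 6 CL316243 arrays, all but WT CL316243 array 3, ended the call (-0.26 to -0.23). Slc25a2, Slc25a22 and Slc25a29, carriers of ornithine, glutamate and basic amino acids, passed no test in the fit to all arrays. The KO difference of Slc25a22 after CL316243 (-0.29 ± 0.11, adjusted p = 0.0585), where the groups did not overlap, passed in 6 of 24 alternatives.

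An iron carrier gave the interaction call found on the probe sets used. Slc25a28, mitoferrin 2, which brings iron into mitochondria, had log2 signals of 8.22, 8.42 and 8.29 in KO CL316243 arrays, against 8.03, 8.05 and 7.97 in KO saline arrays. In WT tissue they were 7.88, 7.90 and 7.87 after CL316243, against 8.36, 8.34 and 8.42 after saline. The order of injections was opposite in the genotypes, with no overlap in either. CL316243 raised Slc25a28 in KO tissue (0.29 ± 0.071, adjusted p = 0.0176) and lowered it in WT tissue (-0.49, adjusted p = 6.33e-04), and the effects differed by 0.78 ± 0.10 (interaction, adjusted p = 0.00467). KO was higher than WT after CL316243 (0.42, adjusted p = 0.00175) and lower after saline (-0.36, adjusted p = 0.0119). The interaction held in every alternative run, with adjusted p-values of 0.00145 to 0.0186, whereas the KO agonist call ended without KO CL316243 array 2 (0.24) or KO saline array 3 (0.27), and the saline call without KO saline array 3 (-0.34).

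**Figure D4:**
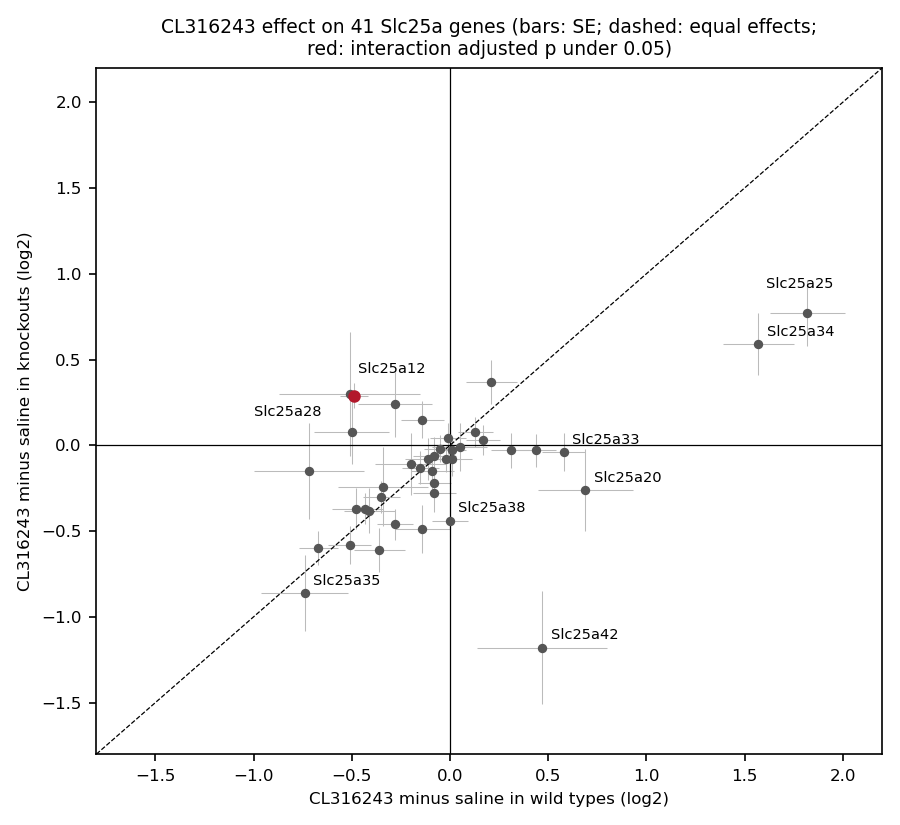
CL316243 effect on the 41 tested Slc25a genes in KO tissue (vertical axis, log2) and WT tissue (horizontal axis, log2), with bars for standard errors and a dashed line of equal effects. Slc25a28 (red) lies to the left of 0 and above it, at 0.29 in KO and -0.49 in WT tissue, and Slc25a25 and Slc25a34 lie furthest to the right.

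Slc25a39, which carries glutathione, had log2 signals of 8.42, 8.46 and 8.49 in KO CL316243 arrays, against 9.16, 9.27 and 9.31 in WT CL316243 arrays. The saline arrays gave 8.38, 8.64 and 8.45 in KO, against 9.10, 8.98 and 8.72 in WT. All 6 KO arrays lay below all 6 WT arrays. It was 1.73-fold lower in KO after CL316243 (-0.79 ± 0.10, adjusted p = 4.64e-04) and lower after saline (-0.44, adjusted p = 0.0228). The saline call ended without KO saline array 1 (-0.39) or 3 (-0.42), or WT saline array 1 (-0.36) or 2 (-0.42). Its rise with CL316243 in WT tissue (0.31, adjusted p = 0.0426) ended on leaving out any 1 of 9 arrays (0.21 to 0.35), that is any array other than KO saline arrays 1 and 2 and WT saline array 1. The relative Slc25a40 fell in WT tissue (-0.41 ± 0.13, adjusted p = 0.0297), where 0 of 3 CL316243 arrays were above the floor of detection used, so the size and the call are uncertain. That call ended without any 1 of the WT CL316243 arrays or WT saline array 1 or 2 (-0.43 to -0.29). Slc25a37, mitoferrin 1, lay between 8.10 and 8.38 in all 12 arrays and passed no test.

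Slc25a34 is a member of less settled cargo with a large agonist response. It had log2 signals of 6.87, 6.34 and 7.01 in KO CL316243 arrays, against 5.99, 6.29 and 6.18 in KO saline arrays. In WT tissue they were 7.95, 7.94 and 8.0 after CL316243, against 6.30, 6.15 and 6.74 after saline. The WT CL316243 arrays stood above all 9 others. Slc25a34 rose 2.96-fold in WT tissue (1.57 ± 0.18, adjusted p = 1.49e-04), and after CL316243 it was 2.33-fold lower in KO than in WT (-1.22, adjusted p = 8.53e-04), comparisons that share the WT CL316243 arrays. In KO tissue it rose by 0.59 ± 0.18 (adjusted p = 0.0452), a call lost without any array other than KO CL316243 array 2 and WT saline arrays 2 and 3 (0.45 to 0.66). The interaction was -0.98 ± 0.26 (adjusted p = 0.0771).

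The promoters of Slc25a25 and Slc25a34 are printed because these 2 members rose with CL316243 in both genotypes. They are from RefSeq on GRCm38.p6, at chr2:32424017-32424316 (minus strand) and chr4:141623785-141624084 (minus strand), written 5′ to 3′ along the gene, from 250 bases before to 50 after the transcript start. In Slc25a25 the capitals mark the palindrome TGACGTCA, the cyclic AMP response element, beginning at position -150, and its other 2 annotated promoters lack it. In Slc25a34 the capitals mark the Nr4a monomer element AAAGGTCA read on the opposite strand, with its first printed base at position -119.
Slc25a25: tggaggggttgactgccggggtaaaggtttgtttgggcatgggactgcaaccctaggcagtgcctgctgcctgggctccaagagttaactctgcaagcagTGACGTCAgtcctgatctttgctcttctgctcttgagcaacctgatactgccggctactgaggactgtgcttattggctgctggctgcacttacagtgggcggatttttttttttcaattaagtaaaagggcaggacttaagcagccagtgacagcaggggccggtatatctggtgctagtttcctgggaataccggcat
Slc25a34: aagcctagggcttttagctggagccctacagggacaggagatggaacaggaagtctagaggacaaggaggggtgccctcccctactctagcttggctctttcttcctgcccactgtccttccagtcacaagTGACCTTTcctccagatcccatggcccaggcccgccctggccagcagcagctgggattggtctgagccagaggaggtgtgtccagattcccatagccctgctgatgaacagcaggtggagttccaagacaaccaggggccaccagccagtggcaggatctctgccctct

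Of 45 members, 35 had a promoter in the table, 45 promoters in all. On both strands of all 32851 mouse promoters, TGACGTCA occurred in 1.79%, AAAGGTCA in 1.51%, the ERR element TNAAGGTCA in 1.28% and the nuclear receptor direct repeat DR1 in 0.381%. Among member genes 2 held TGACGTCA (2 of 45 promoters), Slc25a25 and Slc25a36, and 1 held AAAGGTCA (1 of 45 promoters), Slc25a34. The ERR element and the direct repeat were found in 0. Here N is any base, and a TNAAGGTCA whose N is A contains AAAGGTCA. The half-site TGACG, which lies inside TGACGTCA, occurred in 20.8% of all promoters and in 13 of 45 member promoters (12 of 35 member genes). Slc25a36, with the full element at position -161, passed no test in any comparison of the fit to all arrays. A match describes the letters and not a bound site.

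Slc25a48, linked to choline import, had log2 signals of 6.51, 6.49 and 6.48 in KO CL316243 arrays, against 7.68, 7.76 and 7.48 in WT CL316243 arrays. Under saline the values were 7.13, 7.16 and 7.01 in KO, against 8.18, 8.15 and 7.68 in WT. Every KO array lay below every WT array. It was 2.21-fold lower in KO after CL316243 (-1.15 ± 0.13, adjusted p = 1.88e-04) and 1.87-fold lower after saline (-0.90, adjusted p = 0.00296), and both calls held whichever array was left out. CL316243 lowered it in KO tissue (-0.61 ± 0.13, adjusted p = 0.00855). In WT tissue the fall of -0.36 was just under the threshold (adjusted p = 0.05) and was lost on leaving out any 1 of 11 of the 12 arrays, all but WT saline array 3 (-0.42 to -0.28).

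**Figure D5:**
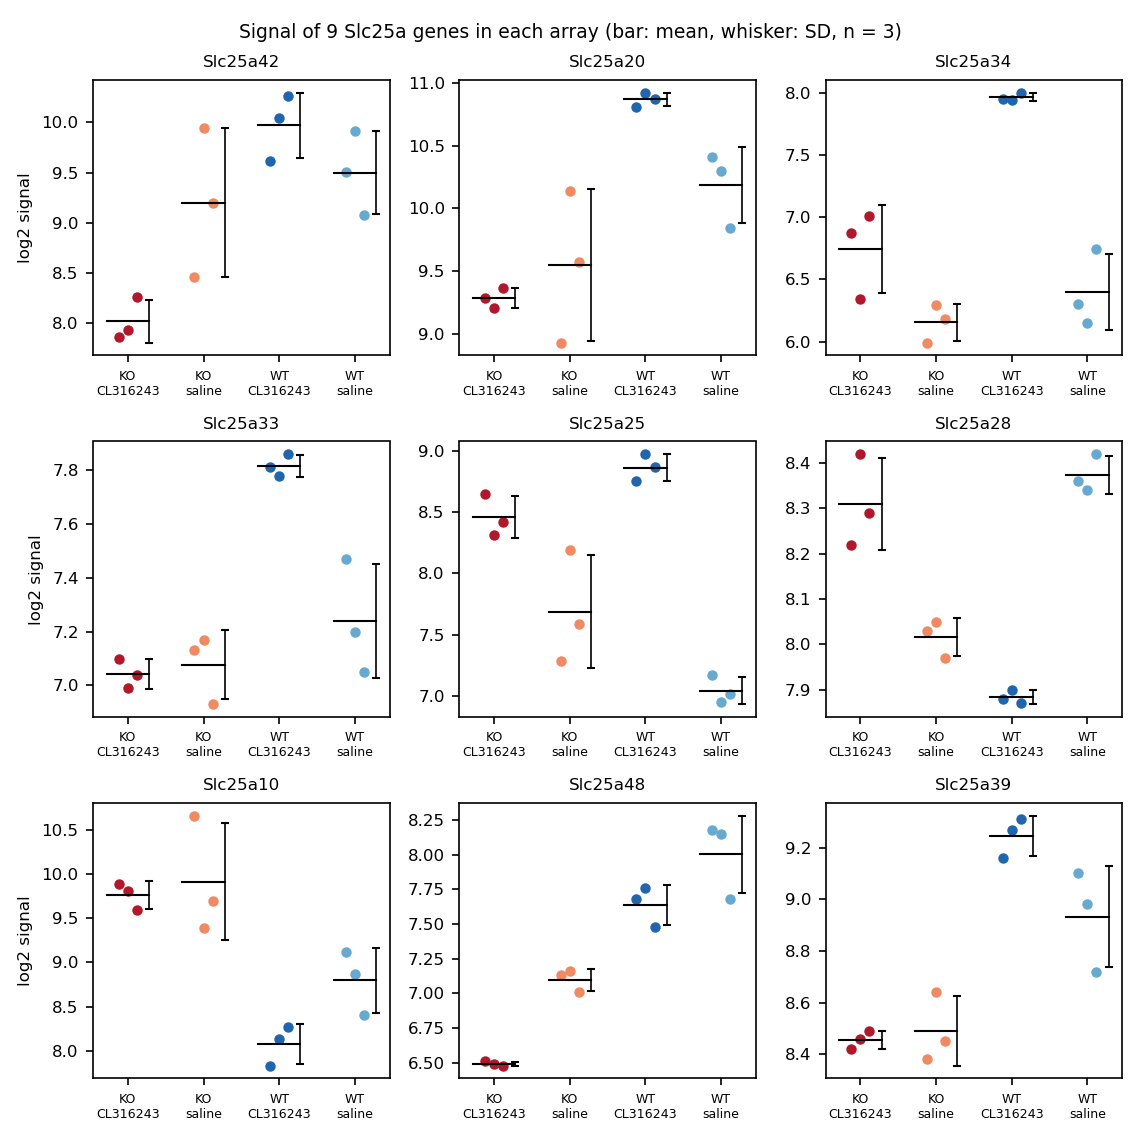
Log2 signal (vertical axes) of 9 Slc25a genes in each array, grouped by genotype and injection, with bars for means and whiskers for SD (n = 3). Slc25a48 and Slc25a39 are lower in all KO arrays than in all WT arrays, Slc25a34 and Slc25a33 stand out in the WT CL316243 arrays, and Slc25a42 is lowest in the KO CL316243 arrays, at 7.86 to 8.26.

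Slc25a35 had log2 signals of 8.56, 9.11 and 8.82 in KO CL316243 arrays, against 9.67, 9.92 and 9.35 in WT CL316243 arrays. With saline injection it had 9.89, 9.60 and 9.57 in KO, against 10.69, 10.60 and 9.87 in WT. It fell with CL316243 in KO (-0.86 ± 0.22, adjusted p = 0.0233) and in WT tissue (-0.74, adjusted p = 0.0276), and it was lower in KO after CL316243 (-0.82, adjusted p = 0.0191). KO and WT arrays were apart after CL316243 and overlapped after saline, where the difference was -0.70 (adjusted p = 0.0655). Its cargo is not settled. The KO agonist call ended without KO CL316243 array 1 (-0.72) or 3 (-0.85), or KO saline array 1 (-0.76). The WT agonist call ended without WT CL316243 array 1 (-0.75) or 3 (-0.60), or WT saline array 1 (-0.59) or 2 (-0.64), and the KO difference without KO CL316243 array 1 (-0.68) or WT CL316243 array 2 (-0.68).

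Slc25a45 fell with CL316243 in KO (-0.58 ± 0.11, adjusted p = 0.00514) and in WT tissue (-0.51, adjusted p = 0.00463), and these calls held under every alternative run. It was also higher in KO after CL316243 (0.36, adjusted p = 0.0287) and after saline (0.42, adjusted p = 0.0317). The call after CL316243 ended without KO CL316243 array 2 (0.27) or 3 (0.36), or WT CL316243 array 1 (0.30) or 2 (0.37), and the call after saline without any 1 of the saline arrays but KO saline array 2 (0.35 to 0.47). Slc25a47 was lower in KO after CL316243 (-0.37 ± 0.086, adjusted p = 0.0084). Slc25a43 was higher there (0.29 ± 0.08, adjusted p = 0.0197), a call lost without KO CL316243 array 1 (0.25) or WT CL316243 array 2 (0.29). Slc25a46, which sits in the outer membrane, and Slc25a53 passed no test in the fit to all arrays.

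The carriers with sequence likeness to uncoupling proteins were Slc25a14, Slc25a27 and Slc25a30. Slc25a14 fell with CL316243 in both genotypes (-0.37 ± 0.09 in KO, adjusted p = 0.0166; -0.43 in WT, adjusted p = 0.00455). In the CL316243 groups 1 of 3 KO arrays and 0 of 3 WT arrays were above the floor of detection, so these sizes are uncertain. Slc25a14 passed the signal filter mainly through saline arrays, where it was higher, so these calls are uncertain too. The KO call ended without KO CL316243 array 1 (-0.33) or 3 (-0.36), or KO saline array 1 (-0.31). Slc25a27 fell in WT tissue (-0.48 ± 0.12, adjusted p = 0.0145), but its other probe set gave 0.34 (adjusted p = 0.505), and without WT CL316243 array 1 the difference was -0.43 (adjusted p = 0.0513). Slc25a30 was higher in KO after CL316243 (0.32 ± 0.11, adjusted p = 0.0497), which was lost on omission of any array other than KO CL316243 array 3 and WT CL316243 array 2 (0.22 to 0.36).

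CL316243 lowered 7 members in both genotypes (17.1%, against 6.83% of all tested genes), Slc25a11, Slc25a14, Slc25a16, Slc25a23, Slc25a35, Slc25a45 and Slc25a48, and these comparisons share no arrays. Slc25a14 passed the signal filter mainly through saline arrays, where it was higher, so it is no independent support for this number. The number was 3 with median-centred arrays, in a fit of only the groups compared or without KO CL316243 array 1, WT CL316243 array 1 or WT saline array 1 or 2, and 2 without KO CL316243 array 3. It was 4 with no filter on low signals or without KO saline array 1 or 3, or WT CL316243 array 2 or 3, and Slc25a23 and Slc25a45 were among these members each time. CL316243 raised Slc25a25 and Slc25a34 in both, which is 4.88% of the members against 4.47% of all genes. The number raised in both was 0 in a fit of only the groups compared or without KO CL316243 array 1, KO saline array 1 or KO saline array 3. It was 1 with no filter or a red blood cell covariate, or without KO CL316243 array 3, KO saline array 2, any WT CL316243 array or WT saline array 1. KO tissue had lower signals after both injections for 4 members (9.76%, against 3.66% of all genes), Slc25a11, Slc25a26, Slc25a39 and Slc25a48. In a fit of only the groups compared, or without KO saline array 1 or 3 or WT saline array 1, Slc25a48 alone was left, and 2 members were left without WT saline array 2, while array weights gave 10. KO tissue had higher signals after both for 3 members (7.32%, against 4.11%), Slc25a10, Slc25a24 and Slc25a45. The number was 0 in a fit of only the groups compared or without KO saline array 1 or 3 or WT saline array 1, and 1 without WT saline array 2 or 3. For these shared calls, shares of all genes are given only for the fit to all arrays. The counts under alternatives therefore cannot be set against a share of all genes. The 4 members that were not tested, Slc25a13, Slc25a21, Slc25a31 and Slc25a54, were below the floor of detection, a 25th percentile of 5.27 to 5.58 by array, in all arrays.

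Genotype calls carry one limit in common. Red blood cell marker signal, a mean of 3 genes of which 2 were above the floor of detection in all arrays, separated KO from WT arrays. When it was added as a covariate 0 members were called after CL316243 and 0 after saline, while over all genes 74 and 1 were called. Genotype and this score cannot be told apart in such a fit. Apart from that covariate, 13 of 22 calls after CL316243 held under every alternative (Slc25a10, Slc25a16, Slc25a20, Slc25a24, Slc25a26, Slc25a28, Slc25a33, Slc25a34, Slc25a38, Slc25a39, Slc25a42, Slc25a47 and Slc25a48), and 1 of 10 after saline (Slc25a48).

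Other mitochondrial transport genes were read beside the family. Of 20 tested genes outside the Slc25a symbols, 2 were higher and 6 lower in KO after CL316243, with a median of -0.25 (14.7% and 14.8% of all genes). The lower genes were Mtch1 (-0.61 ± 0.094, adjusted p = 0.00104) and Mtch2 (-0.51), which sit in the outer membrane, Vdac2 (-0.43), a pore of the outer membrane, Abcb8 (-0.51) and Abcb10 (-0.35), transporters of the inner membrane, and Letm1 (-0.32), an ion exchanger. The higher genes were the sideroflexins Sfxn3 (0.67, adjusted p = 0.00193) and Sfxn1 (0.42), of which Sfxn1 carries serine. After saline 0 were higher and 4 lower in KO (5.44% and 6.19% of all genes), namely Abcb8 (-0.66), Letm1 (-0.52), Mpc1 (-0.52), a subunit of the pyruvate carrier, and Smdt1 (-0.37), part of the calcium uniporter. CL316243 raised 1 and lowered 2 of the 20 in KO tissue (7.75% and 10.2% of all genes), and raised 2 and lowered 5 in WT tissue (11.0% and 18.8% of all genes). Mcu, the pore of the calcium uniporter, rose in both (0.32 in KO, 0.27 in WT), and Sfxn4 and Abcb8 fell in both (-0.67 and -0.39 in KO, -0.61 and -0.53 in WT). In WT tissue Ucp3 also rose (0.92 ± 0.30, adjusted p = 0.042), and Sfxn1 (-0.54), Sfxn5 (-0.26) and Micu2 (-0.67) fell. Ucp1 was 4.56-fold lower in KO after CL316243 without overlap of the groups (-2.19 ± 0.76, adjusted p = 0.0509) and 3.53-fold lower after saline with overlap (-1.82, adjusted p = 0.142), and neither passed the test. Its agonist differences were 0.71 in KO and 1.08 in WT tissue (adjusted p = 0.585 and 0.331).

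Of the carnitine shuttle that works with Slc25a20, 5 of 7 genes were tested, and after CL316243 1 was higher and 3 were lower in KO (14.7% and 14.8% of all genes). Crat, carnitine acetyltransferase, was lower (-1.09 ± 0.13, adjusted p = 2.53e-04), as were Slc22a5, the carnitine importer of the plasma membrane (-1.16 ± 0.22, adjusted p = 0.0031), and Cpt2 itself (-0.75 ± 0.096, adjusted p = 3.86e-04). Cpt1a, which makes acylcarnitines at the outer membrane, was higher (0.59 ± 0.087, adjusted p = 8.53e-04). Cpt1a (0.55) and Cpt2 (-0.75) had the same calls after saline. CL316243 raised Crat (0.64, adjusted p = 0.00349) and Slc22a5 (1.0, adjusted p = 0.00577) in WT tissue and lowered Crot, the peroxisomal carnitine octanoyltransferase, in KO (-0.57) and in WT tissue (-0.62). The agonist effect on Crat differed between genotypes (interaction -0.84, adjusted p = 0.0416).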

How the data were processed

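RNA from 12 brown fat samples was measured on an Affymetrix mouse exon array. The deposited values are log2 signals that the authors obtained with RMA in Partek on genome build mm9, per the submitters' processing notes, which give no versions. They were used as deposited. Of 115830 table rows, 25539 belonged to a single gene in the platform annotation, 2300 to several and 87991 were not listed. A gene was tested if its signal passed the array's own 25th percentile (over genes with a name) in 3 or more arrays.

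Groups came from the sample labels, which call the replicates biological. limma 3.58.1 in R 4.3.3 fitted 1 mean per group with empirical Bayes moderation (prior degrees of freedom 3.14, residual 8), and 5 contrasts were adjusted by Benjamini-Hochberg over 15896 genes. The fit was tested on simulated data. The 3 arrays per group limit precision. Values in every array are given for the 12 called members with the largest differences and for a panel of 8 members, of which Slc25a5 has no value. Members and lists were chosen with earlier results of these data known. Alternatives were other scalings, filters, probe set rules, moderation, array weights, a replicate block, muscle or red blood cell marker covariates, fitting only the groups compared and leaving out each array. A gene's other probe sets were examined after the data had been seen. Promoters and gene chromosomes are from RefSeq (GRCm38.p6). They were used for sequences and names only, since the arrays' build differs. Promoters were searched with pandas 2.3.3 in Python 3.11.15, and figures were drawn with matplotlib 3.10.9.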

Additional observations from a re-analysis of the deposited data

Results flagged for a closer look

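Slc25a28, mitoferrin 2, was the member whose response to CL316243 differed between the genotypes by the test of the difference itself. The effect in KO minus that in WT tissue was 0.78 ± 0.10 log2 units (limma interaction, adjusted p = 0.00467, n = 3 per group). CL316243 gave a rise of 0.29 in KO and a difference of -0.49 in WT tissue, with all 3 agonist arrays above all saline arrays in KO and all 3 below them in WT. Over all tested genes 0.138% rose in KO and fell in WT tissue. The cause was not tested.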

How the results depend on the processing

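Across alternatives, 4429 of the single-gene results kept their call and direction or, if uncalled, stayed within 1 standard error, 255 lost a call, 84 gained one, 90 uncalled ones shifted by more than that and 1 turned round: the WT agonist difference of Slc25a27, -0.48 on the probe set used, was 0.34 on the other. Calls held under every alternative run for 5 of 13 members for CL316243 in KO, 8 of 15 for CL316243 in WT, 0 of 22 for KO after CL316243, 0 of 10 for KO after saline and 1 of 1 for the interaction. Fitting only the groups compared gave 1 rise with CL316243 in KO (7.64% of all genes), and 0 higher and 2 lower members in KO after saline (2.13% and 1.67% of all genes). Median-centred arrays gave 5 falls with CL316243 in WT (10.3% of all genes) and 1 lower member in the interaction (1.77% of all genes). A red blood cell covariate, whose values do not overlap between the genotypes, gave 0 higher and 0 lower members in KO after CL316243 (0.226% and 0.239% of all genes). After saline it gave the same 0 and 0 (0.00629% and 0% of all genes). Array weights gave 11 lower members in KO after saline (12.3% of all genes) and 3 lower in the interaction (3.3% of all genes). The interaction also had 1 lower member with a filter at the 50th percentile (2.56% of all genes). It had 2 with the mean of a gene's probe sets and 2 with a muscle covariate (1.21% and 0.975% of all genes). Except where fewer arrays or an altered probe set were used, the cause was not tested.

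Leaving out 1 array at a time gave 0 to 3 rises and 5 to 10 falls with CL316243 in KO, and 4 to 6 rises and 5 to 11 falls in WT. It gave 4 to 7 higher and 11 to 16 lower members in KO after CL316243, 0 to 4 and 1 to 8 after saline, and 1 to 1 and 0 to 3 in the interaction. Shares of all genes without the arrays named there are given with the family counts above. With replicate number as a block the counts of members higher and lower were 3 and 9 for CL316243 in KO, 4 and 10 for CL316243 in WT, 7 and 16 for KO after CL316243, 3 and 8 for KO after saline, and 1 and 0 for the interaction. In the same order, the shares of all genes were 7.53% and 10.1%, 10.8% and 18.5%, 14.6% and 15.1%, 5.02% and 6.04%, and 0.635% and 1.2%. Deviations of same-numbered arrays from their group means had correlations of -0.30 to 0.48. Pairs over 0.1 were 2 of 6 for number 1, 2 of 6 for number 2 and 3 of 6 for number 3. Whether the numbers stand for a shared batch was not tested. Signal near the floor of detection limits Slc25a14 and Slc25a40, and 3 arrays per group limit all sizes.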
